A study of Mus musculus with 12 samples.

Results

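Oxidative phosphorylation couples the transfer of electrons along the respiratory chain to the making of ATP, and the RNAs examined here encode the protein subunits of its 5 complexes. Genes were taken by symbol: those starting with Ndufa, Ndufb, Ndufc, Ndufs or Ndufv for complex I, Sdha to Sdhd for complex II, those starting with Uqcr for complex III, Cox4 to Cox8 for complex IV and Atp5 for complex V. Of 12393 genes measured, 84 had such a symbol. Of these, 79 encode subunits (34 of complex I, 4 of II, 8 of III, 16 of IV and 17 of V), and the other 5 are Ndufaf genes, which encode assembly factors of complex I and were counted apart. Each gene was read from a single probe set, namely the brightest on average among those annotated to that gene alone. The choice used no difference between treatments. Cox6a2, Cox7a1 and Cox8b, the forms of 3 complex IV subunits made in heart and skeletal muscle, were kept apart from the other 76 subunits.

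Complexes I, III and IV move protons out of the mitochondrial matrix as electrons pass from NADH and ubiquinone to oxygen, complex II passes electrons from succinate to ubiquinone, and complex V, the ATP synthase, uses the returning protons to make ATP. Most subunits are coded in the nucleus and a few in mitochondrial DNA, so building the complexes draws on both genomes. Doxorubicin intercalates into DNA, poisons topoisomerase II and is known for damaging mitochondria of the heart.

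The tumours were subcutaneous C26 colon carcinomas grown on the dorsal flank of Balb/c mice aged 6 weeks. On day 8 after the tumour cells were injected, when tumours measured about 50 mm3, the mice received CP-Dox, free doxorubicin (Dox) or the buffer PBS. CP-Dox is known from the study's published work as doxorubicin attached to a chimeric polypeptide that assembles into nanoparticles, and the doses are not given in the sources used here. Tumours were taken 48 hours after treatment, 4 per group and 1 mouse per array, and the RNA was hybridised to Affymetrix arrays. Signals below are RMA values on the log2 scale, and rose, fell and changed are used of an adjusted p under 0.05 in limma's fit over all genes (Benjamini-Hochberg, two-sided).

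The arrays carried several kinds of tissue. All 10 listed markers of colon epithelium and carcinoma were measured. Of these, Krt19, Cldn7, Cdx1, Cdx2 and Vil1 stayed at or below 5.44 on every array, under the 25th percentile of all signals (5.62). Over the 12 arrays Krt8 ranged over 9.17 to 12.05, Krt18 over 5.74 to 10.33, Epcam over 5.29 to 7.87, Cdh1 over 5.27 to 7.88 and Cldn4 over 5.46 to 6.69. The mean of 16 of 17 keratinocyte markers lay 2.68 and 3.91 above the PBS mean in CP-Dox replicates 1 and 3 and between -0.13 and 0.13 in the other 10 tumours. CP-Dox replicate 2 correlated least with its own group (mean r of 0.948, against 0.971 to 0.977 for the other CP-Dox arrays and 0.981 to 0.990 for the Dox and PBS arrays). In that tumour the mean of 11 of 13 T and natural killer cell markers, relative to the PBS mean, was -1.18. It was 0.62 to 1.13 in the other CP-Dox tumours, -0.28 to 0.67 in Dox tumours and -0.51 to 0.48 in PBS tumours. The mean of 12 of 13 macrophage markers was -0.62 there. It was 0.06 to 0.30 in the other CP-Dox tumours, 0.12 to 0.44 in Dox tumours and -0.09 to 0.13 in PBS tumours. The mean signal of further marker lists, relative to the PBS mean, moved with the groups. The mean of 8 mast cell markers lay at 1.19 to 1.90 in CP-Dox tumours, -0.27 to 1.18 in Dox tumours and -0.49 to 0.30 in PBS tumours, and that of 8 endothelial markers at 0.59 to 0.74, -0.02 to 0.37 and -0.32 to 0.17 in the same order of groups. That of 9 of 9 fibroblast markers lay at 0.26 to 0.79 in CP-Dox tumours, -0.23 to 0.25 in Dox tumours and -0.22 to 0.13 in PBS tumours, and that of 9 of 11 adipocyte markers at 0.38 to 1.09, -0.16 to 0.60 and -0.31 to 0.34. The mean of 4 of 7 erythroid markers lay at -0.61 to -0.35 in CP-Dox tumours, -0.58 to -0.36 in Dox tumours and -0.10 to 0.17 in PBS tumours. Most of that came from Alas2, with group means of 5.37 (CP-Dox), 5.15 (Dox) and 6.84 (PBS). In the same order Slc4a1 had 5.25, 5.45 and 5.64, Epb42 5.05, 5.27 and 5.26, and Hba-a1 5.11, 5.11 and 5.11. Hba-a1 stayed at or below 5.30 on every array, under the 25th percentile, so its values give little information on globins. Hbb-b2, a globin gene outside the list, had the lowest p of all genes between Dox and PBS (limma adjusted p = 0.0783). The part of these marker lists in the subunit differences was not tested. In whole tumours, fewer cells of a type and less RNA per cell cannot be told apart.

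After CP-Dox, 2 of the 79 subunit genes changed relative to PBS, 1 in each direction, where 5.58% of all genes did (3.23% lower and 2.35% higher). Atp5b, the catalytic beta subunit of the ATP synthase head, fell by 0.38 on the log2 scale, or 0.77-fold. Cox6b2, known as the testis form of a complex IV subunit, rose by 0.69, which is 1.61-fold. Below the threshold most subunits had a lower mean in CP-Dox tumours than in PBS tumours: 70 of 79 had a negative log2 fold change, where 55.9% of all genes did, and the median over the 76 non-muscle subunits was -0.13, against -0.04 over all genes. Complexes III and V were negative throughout (8 of 8 and 17 of 17), and complex V had the lowest median of the 5 complexes, -0.19. The size of these medians rested partly on 1 control tumour: without PBS replicate 4 the median over the 76 subunits was -0.07.

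The promoters of both genes that passed, of the muscle form Cox8b and of its widely expressed partner Cox8a are printed here to set their sequences beside the responses that follow. They come from RefSeq (build GRCm38.p6), run from 250 bases before to 50 bases after the annotated start, 300 bases each, and read 5′ to 3′ on the gene's strand. Capitals mark every match, on either strand, to 6 motifs. These are the letters CCGGAAG for factors of the ETS family, ATGGCGGC for YY1, the core GCGCANGCG for NRF1, CCAAT for the CCAAT box, TATAAA for the TATA box and CAGCTG for the E-box of muscle genes. No 2 matches overlap in these 4 windows. Atp5b lies at chr10:128083057-128083356 on the plus strand, Cox6b2 at chr7:4753045-4753344 on the minus strand, Cox8b at chr7:140900397-140900696 on the minus strand and Cox8a at chr19:7217567-7217866 on the minus strand.
Atp5b: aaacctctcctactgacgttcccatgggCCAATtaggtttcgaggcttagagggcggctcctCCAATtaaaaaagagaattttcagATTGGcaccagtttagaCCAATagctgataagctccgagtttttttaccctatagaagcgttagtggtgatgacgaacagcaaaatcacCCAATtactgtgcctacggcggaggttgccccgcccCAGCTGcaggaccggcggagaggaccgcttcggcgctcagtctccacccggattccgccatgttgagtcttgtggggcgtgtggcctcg
Cox6b2: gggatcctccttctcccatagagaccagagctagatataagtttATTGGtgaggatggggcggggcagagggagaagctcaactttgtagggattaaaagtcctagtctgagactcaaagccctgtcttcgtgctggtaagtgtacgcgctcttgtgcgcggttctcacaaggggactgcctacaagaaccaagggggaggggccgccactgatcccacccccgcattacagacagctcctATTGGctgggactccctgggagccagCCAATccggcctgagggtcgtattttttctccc
Cox8b: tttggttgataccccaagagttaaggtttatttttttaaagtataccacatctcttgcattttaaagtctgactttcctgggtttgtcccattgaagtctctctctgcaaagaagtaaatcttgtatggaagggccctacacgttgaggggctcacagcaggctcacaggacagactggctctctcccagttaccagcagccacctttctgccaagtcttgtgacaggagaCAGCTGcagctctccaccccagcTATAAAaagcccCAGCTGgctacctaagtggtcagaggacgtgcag
Cox8a: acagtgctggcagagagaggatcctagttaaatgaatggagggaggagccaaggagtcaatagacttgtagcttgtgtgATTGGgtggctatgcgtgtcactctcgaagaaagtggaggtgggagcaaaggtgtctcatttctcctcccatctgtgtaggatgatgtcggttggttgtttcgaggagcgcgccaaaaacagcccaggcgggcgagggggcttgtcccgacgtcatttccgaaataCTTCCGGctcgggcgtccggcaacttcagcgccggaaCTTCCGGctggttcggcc

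The Atp5b window holds 5 CCAAT matches and 1 E-box, and the Cox6b2 window holds 3 CCAAT matches. Cox8b has 1 TATAAA and 2 E-boxes, and Cox8a has 2 ETS matches and 1 CCAAT. The promoter table held 70 windows for 65 of the 79 subunits, and 32851 windows in all. ETS letters stood in 24.3% of subunit windows against 8.86% of all windows, NRF1 letters in 25.7% against 6.25%, and YY1 letters in 8.57% against 2.24%. All 6 subunit windows with the YY1 letters belong to complex I. The other motifs stood at 38.6% against 37.4% for CCAAT, 11.4% against 13.6% for TATAAA and 8.57% against 16.3% for the E-box. A match is a description of the letters and does not show that a factor binds there.

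The groups did not overlap for 8 subunits. In 7 of 79 every CP-Dox tumour lay below every PBS tumour, as it did in 7.75% of all genes: Atp5b, Atp5g1, Atp5g3, Ndufa12, Ndufab1, Ndufb9 and Ndufc1. Cox6b2 was the only one above, where 4.31% of all genes were.

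**Figure D1:**
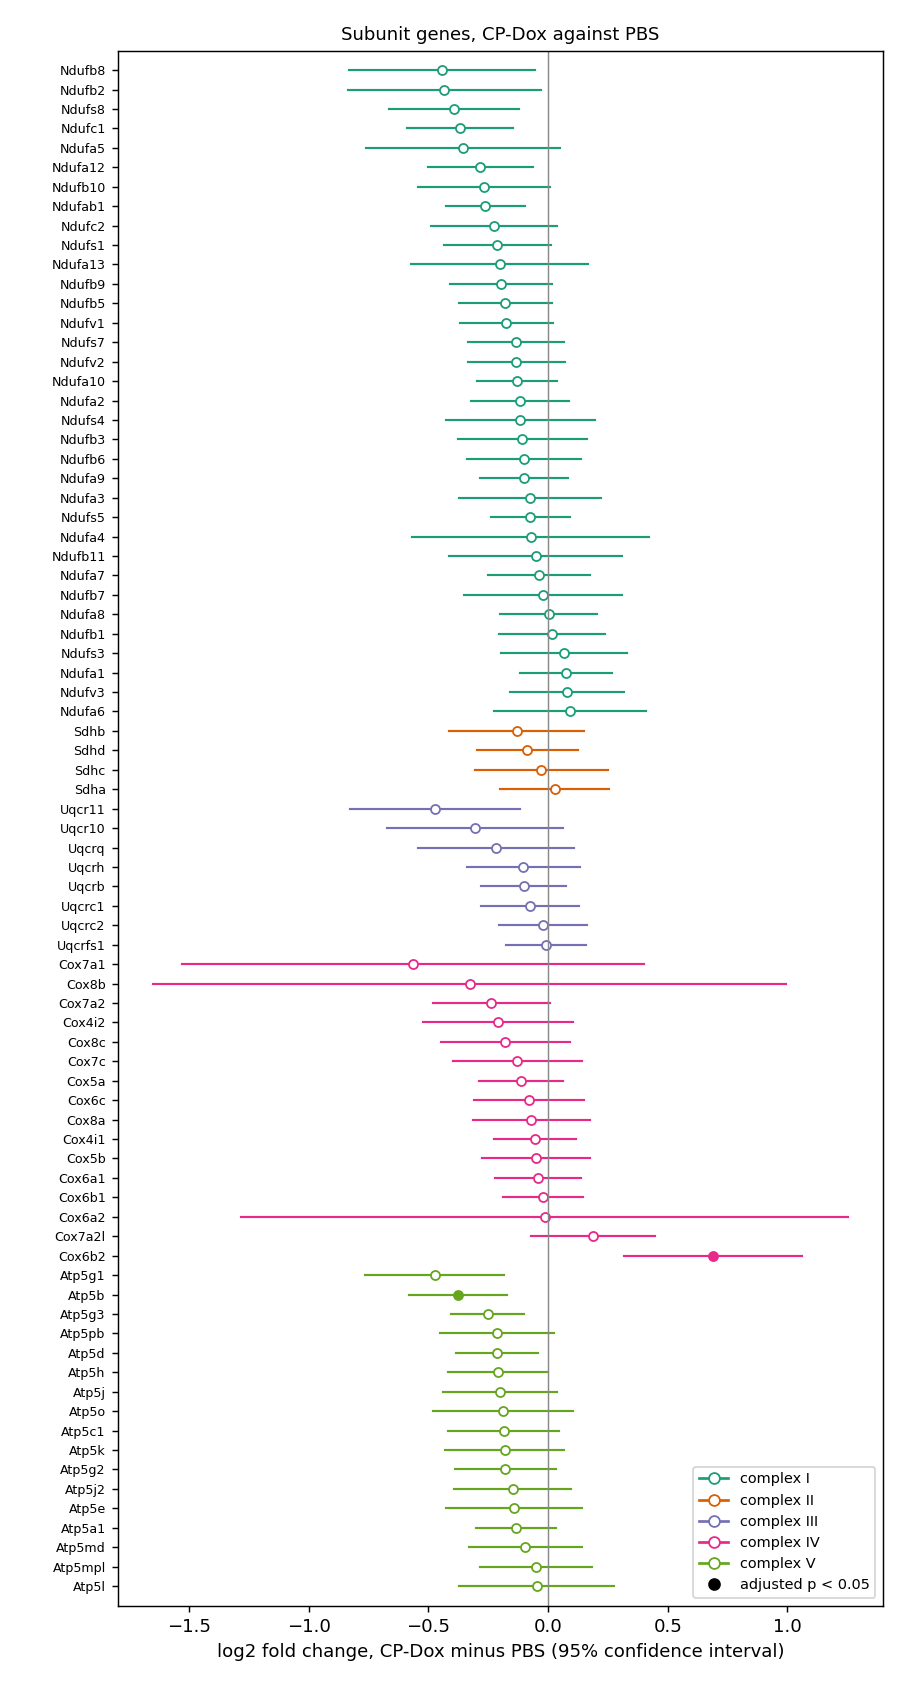
Log2 fold change of each of the 79 subunit genes, CP-Dox minus PBS, with its 95% confidence interval from limma (4 tumours per group), grouped by complex and ordered within it. Filled points passed an adjusted p of 0.05, which only Atp5b and Cox6b2 did. The points of complexes III and V all lie left of 0, and the 3 muscle forms have the widest intervals.

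All 17 genes of complex V had a lower mean in CP-Dox tumours than in PBS tumours. The head of the enzyme holds the beta subunit, where ATP is made, and Atp5b encodes it. Atp5b had signals of 12.17, 12.39, 11.98 and 12.26 in CP-Dox tumours, 12.39, 12.41, 12.51 and 12.38 in Dox tumours and 12.61, 12.67, 12.48 and 12.54 in PBS tumours. Every CP-Dox value lay below every PBS value, and the Dox values lay between, overlapping both groups. The difference between CP-Dox and PBS was -0.38 ± 0.09 (log2 fold change ± SE, n = 4 each, limma adjusted p = 0.0398). The call was lost when any 1 of 11 of the 12 arrays was left out and held without CP-Dox replicate 2, with log2 fold changes from -0.44 to -0.30 and adjusted p from 0.00817 to 0.111. Without CP-Dox replicates 1 and 3, the tumours with keratinocyte markers, it was -0.25 (adjusted p = 0.343), and with the keratinocyte mean as a covariate -0.25 (adjusted p = 0.286).

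The c subunit forms the rotating ring of the ATP synthase and is encoded by Atp5g1, Atp5g2 and Atp5g3. Atp5g3 had signals of 13.03, 13.14, 12.97 and 13.09 in CP-Dox tumours, 13.26, 13.26, 13.30 and 13.21 in Dox tumours and 13.33, 13.24, 13.39 and 13.27 in PBS tumours. The CP-Dox values lay below all of the other 8, and the difference from PBS stood just outside the threshold (-0.25 ± 0.07, limma adjusted p = 0.0591). Atp5g1 had signals of 10.89, 10.90, 11.00 and 11.08 in CP-Dox tumours, 11.21, 10.98, 11.35 and 11.27 in Dox tumours and 11.37, 11.10, 11.54 and 11.76 in PBS tumours. Its CP-Dox values lay below all PBS values, PBS replicate 2 coming closest, and its log2 fold change was -0.47 ± 0.13 (adjusted p = 0.0619). Atp5g2 differed by -0.18 in the same comparison. The other subunits of complex V included Atp5d, in the central stalk (-0.21), and Atp5j, coupling factor 6 of the side stalk (-0.20). Over the 17 genes, the highest log2 fold change was -0.05, and 5 had an unadjusted p under 0.05, where 23.5% of all genes did.

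**Figure D2:**
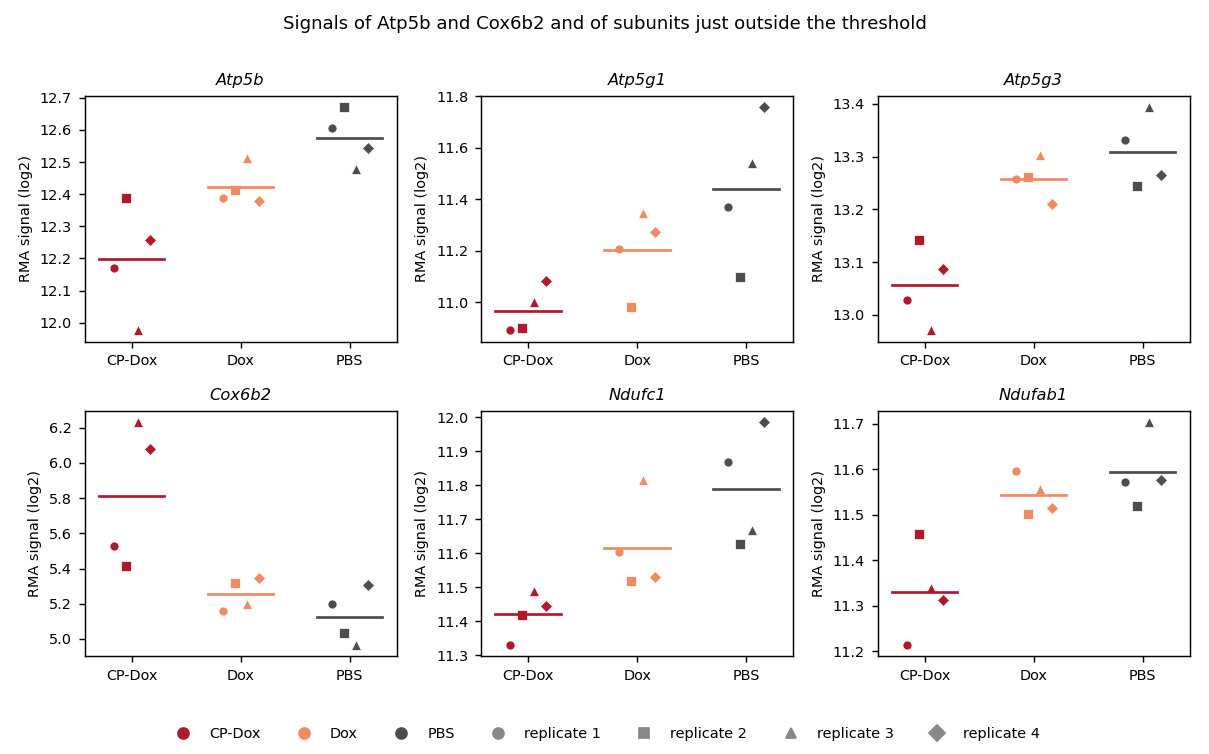
RMA signal (log2) of Atp5b and Cox6b2, and of 4 subunits just outside the threshold for CP-Dox against PBS, in every tumour. Each symbol is 1 tumour, its shape gives the replicate number, bars are group means, and each panel has its own axis, which does not start at 0. CP-Dox and PBS tumours do not overlap in any of the 6 panels.

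None of the 34 complex I genes passed the threshold after CP-Dox, and 6 had an unadjusted p under 0.05 in limma, where 23.5% of all genes did. Those nearest to it belong to different modules of the complex. Ndufc1, an accessory subunit of the membrane arm, had signals of 11.33, 11.42, 11.49 and 11.44 in CP-Dox tumours, 11.60, 11.52, 11.82 and 11.53 in Dox tumours and 11.87, 11.63, 11.67 and 11.99 in PBS tumours. The CP-Dox values lay below all of the others. The log2 fold change against PBS was -0.37 ± 0.10 (adjusted p = 0.0573), and its other probe set gave -0.32.

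Ndufab1 is the mitochondrial acyl carrier protein, which also serves in fatty acid and lipoic acid synthesis. It had signals of 11.21, 11.46, 11.34 and 11.31 in CP-Dox tumours, 11.60, 11.50, 11.56 and 11.52 in Dox tumours and 11.57, 11.52, 11.70 and 11.58 in PBS tumours, again with CP-Dox below the rest (-0.26 ± 0.08, limma adjusted p = 0.0679). Its other probe sets, with lower mean signals of 6.95 and 3.79, gave -0.004 and -0.18. Ndufs8, a core subunit that carries iron-sulfur clusters, had signals of 11.53, 11.62, 11.53 and 11.51 in CP-Dox tumours, 11.82, 11.73, 11.90 and 11.89 in Dox tumours and 11.85, 11.58, 12.08 and 12.25 in PBS tumours. The 4 CP-Dox tumours were close together and below every Dox tumour, while PBS replicate 2 fell among them (-0.39 ± 0.12, adjusted p = 0.0901). All 6 probe sets of Ndufs8 had negative differences, from -0.48 to -0.24. Ndufb8 and Ndufb2, accessory subunits of the membrane arm, had the most negative fold changes of the complex (-0.44 and -0.43), with adjusted p of 0.162 and 0.185.

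Complex II had the median closest to 0 (-0.06). Sdha, the flavoprotein that oxidises succinate, differed by 0.03 (95% interval -0.20 to 0.25) between CP-Dox and PBS. Sdhb, the iron-sulfur subunit, differed by -0.13 (-0.41 to 0.15), and Sdhd, a membrane anchor, by -0.09 (-0.30 to 0.12). None of the 4 genes had an unadjusted p under 0.05 in limma. These intervals allow falls of about the size seen for Atp5b in Sdhb but not in Sdha.

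The complex III genes taken by symbol had 8 negative fold changes of 8, and none passed. Cyc1, a catalytic subunit of complex III outside those symbols, did fall after CP-Dox (limma adjusted p = 0.00759) and is given further below. Uqcr11, a small accessory subunit, had signals of 10.60, 10.92, 10.81 and 10.77 in CP-Dox tumours, 10.87, 10.69, 11.10 and 10.84 in Dox tumours and 11.11, 10.89, 11.26 and 11.74 in PBS tumours. PBS replicate 4 was far above the rest, and PBS replicate 2 lay within the CP-Dox range. The difference from PBS was -0.47 ± 0.16 in CP-Dox tumours (limma adjusted p = 0.112) and -0.38 ± 0.16 in Dox tumours (adjusted p = 0.995). Uqcr10 and Uqcrq, also small accessory subunits, differed by -0.30 and -0.22 after CP-Dox. The core proteins Uqcrc1 and Uqcrc2 differed by -0.07 and -0.02, and Uqcrfs1, the Rieske iron-sulfur protein, by -0.01.

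Complex IV held the subunit that rose. Cox6b2 had signals of 5.53, 5.41, 6.23 and 6.08 in CP-Dox tumours, 5.16, 5.32, 5.20 and 5.35 in Dox tumours and 5.20, 5.03, 4.97 and 5.31 in PBS tumours. The CP-Dox values lay above the other 8, with replicates 3 and 4 highest. The log2 fold change was 0.69 ± 0.17 (n = 4 each, limma adjusted p = 0.0397). The probe set is dim: its mean in PBS tumours, 5.13, is below the 25th percentile of all signals, and the gene has only this probe set. As for Atp5b, the call held without CP-Dox replicate 2 and was lost without any 1 of the other 11 arrays (0.55 to 0.82, adjusted p from 0.00542 to 0.112). Without CP-Dox replicates 1 and 3 the difference was 0.62 (adjusted p = 0.197), and with the keratinocyte mean as a covariate 0.57 (adjusted p = 0.254).

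Cox6b1, the widely expressed partner of Cox6b2, differed by -0.02 ± 0.08 after CP-Dox. Cox4i1, the common form of subunit 4, differed by -0.05, and Cox4i2, its lung and low-oxygen form, by -0.21 on a dim probe set. Cox7a2l, which takes part in joining complexes III and IV into supercomplexes, had a positive difference of 0.19 ± 0.12 (limma adjusted p = 0.356), and Cox5a, a matrix-side subunit, one of -0.11. Cox7a2 differed by -0.24 (adjusted p = 0.224), Cox6a1 by -0.04 and Cox8a by -0.07. Cox7c was read from a dim probe set (mean signal 4.67), so its -0.13 gives little information.

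The muscle forms varied widely between tumours of the same treatment. Cox6a2 had signals of 7.01, 7.63, 8.07 and 8.24 in CP-Dox tumours, 6.66, 8.06, 6.61 and 6.93 in Dox tumours and 6.60, 6.73, 9.42 and 8.26 in PBS tumours. Cox8b had signals of 5.56, 6.23, 6.61 and 6.80 in CP-Dox tumours, 5.34, 6.74, 5.41 and 5.78 in Dox tumours and 5.38, 5.47, 8.31 and 7.35 in PBS tumours. Cox7a1 had signals of 4.88, 4.61, 5.19 and 5.84 in CP-Dox tumours, 4.94, 5.39, 5.08 and 4.56 in Dox tumours and 4.79, 4.85, 6.85 and 6.30 in PBS tumours. All 3 were highest in PBS replicate 3, and all 3 were highest within the Dox group in replicate 2. Their within-group SD ran from 0.70 (Cox7a1) to 0.96 (Cox8b), against a median of 0.15 over the other 76 subunits and 0.18 over all genes.

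Markers of skeletal muscle moved with them. The mean of 22 of 23 muscle markers, relative to the PBS mean, was -0.55, 0.34, 1.14 and 1.29 in CP-Dox tumours, -1.95, 1.22, -1.92 and -1.90 in Dox tumours and -1.94, -2.05, 2.72 and 1.27 in PBS tumours. It too was highest in PBS replicate 3, and highest among Dox tumours in replicate 2. None of the muscle forms passed the threshold between CP-Dox and PBS tumours in limma: Cox6a2 differed by -0.01 ± 0.58, Cox8b by -0.33 ± 0.60 and Cox7a1 by -0.56 ± 0.44, with adjusted p of 0.990, 0.765 and 0.455, and 0 of the 3 had an unadjusted p under 0.05. The 22 markers did not all move the same way between CP-Dox and PBS. Of them, 15 had a positive and 7 a negative log2 fold change, from -0.89 to 3.05. Whether their mean follows muscle content equally in both groups was not tested. With the marker mean as a covariate, the difference for Cox8b became -0.63 ± 0.15 (adjusted p = 0.0372), that for Cox7a1 -0.77 ± 0.22 (0.0744) and that for Cox6a2 -0.31 ± 0.13 (0.177). The same covariate left Atp5b at -0.36 (adjusted p = 0.0514) and Cox6b2 at 0.67 (0.0526), just outside the threshold.

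**Figure D3:**
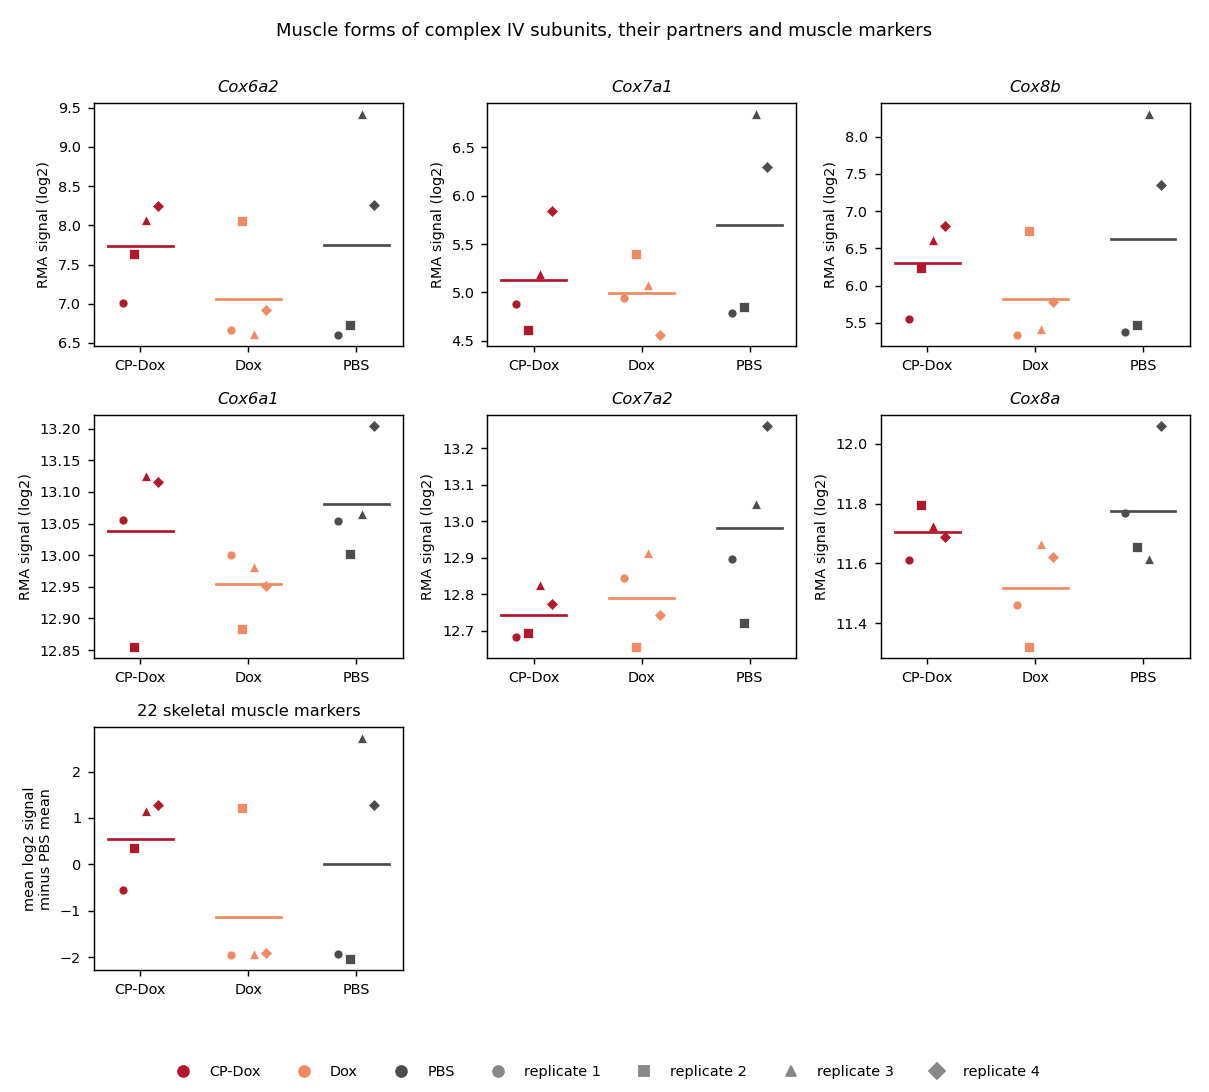
RMA signal (log2) of the muscle forms Cox6a2, Cox7a1 and Cox8b (top row) and of their widely expressed partners Cox6a1, Cox7a2 and Cox8a (middle row) in every tumour, with the mean of 22 skeletal muscle markers relative to the PBS mean (bottom). Symbols are single tumours, bars are group means, and each panel has its own axis. PBS replicate 3 is highest in the top row and in the marker panel, and PBS replicate 4 is highest in the middle row.

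Free doxorubicin changed 0 of the 79 subunits relative to PBS, and 0% of all genes passed in limma. At an unadjusted p under 0.05 there were 4 subunits, each with a lower mean than in PBS tumours, where 4.5% of all genes reached that level (2.54% with a lower mean). The fold changes leaned the same way across the complexes: 71 of 79 were negative, where 48.6% of all genes were, with a median over the 76 non-muscle subunits of -0.10, against 0.00 over all genes. By complex the medians were -0.10 for I, -0.07 for II, -0.17 for III, -0.05 for IV and -0.13 for V. Without PBS replicate 4 the median over the 76 subunits was -0.05. Without Dox replicate 2 it was -0.06.

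Of those 4 subunits, Uqcr11 is given above. Cox8a had signals of 11.46, 11.32, 11.66 and 11.62 in Dox tumours, against 11.77, 11.66, 11.61 and 12.06 in PBS tumours. The ranges touched, since PBS replicate 3 fell below Dox replicates 3 and 4. The difference was -0.26 ± 0.11 (unadjusted p = 0.0412, adjusted p = 0.995 in limma). Ndufb9, an accessory subunit of complex I, had signals of 12.20, 12.01, 12.32 and 12.23 in Dox tumours, against 12.35, 12.25, 12.38 and 12.64 in PBS tumours, a difference of -0.22 ± 0.10. Its other probe sets gave -0.05 (mean signal 12.04) and 0.01 (mean signal 5.59). Atp5g2 differed by -0.21 ± 0.10.

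The remaining subunits with low p in each complex were further from the threshold. Ndufa4, first counted to complex I and now assigned to complex IV, differed by -0.40 ± 0.23 between Dox and PBS, and Ndufs7, a core iron-sulfur subunit, by -0.17. In complex III, Uqcrc1 differed by -0.19 and Uqcrb, which helps form the ubiquinone site, by -0.15. In complex V, Atp5j differed by -0.22, Atp5g1 by -0.24 and Atp5b by -0.15 ± 0.09 (95% interval -0.35 to 0.05). Cox6a1 had Dox signals wholly below its PBS signals (-0.13), as did Ndufs3 and Uqcrc1. That makes 3 of 79 subunits, where 2.13% of all genes did so. Cox6b2 differed by 0.13 ± 0.17.

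Between CP-Dox and Dox tumours 0 of 79 subunits changed, where 0.226% of all genes did, and 6 had an unadjusted p under 0.05 in limma, where 16.1% of all genes did. The fold changes were split: 42 of 79 were negative, where 55.7% of all genes were, and the median over the 76 non-muscle subunits was -0.01, against -0.03 over all genes. Cox6b2 had the lowest p of the subunits and a higher mean in CP-Dox tumours (0.56 ± 0.17, 95% interval 0.19 to 0.93, adjusted p = 0.174). Atp5g3 differed by -0.20 ± 0.07 (adjusted p = 0.209), Ndufab1 by -0.21 ± 0.08 (0.223), Atp5b by -0.23 ± 0.09 (0.275), Ndufs8 by -0.28 ± 0.12 (0.296) and Atp5d by -0.18 ± 0.08 (0.306). The other probe set of Atp5d had the opposite order, with means of 11.35 in CP-Dox and 11.32 in Dox tumours. CP-Dox tumours lay wholly below Dox tumours in 6 subunits, Atp5g3, Atp5h, Cox5a, Ndufab1, Ndufc1 and Ndufs8, where 6.34% of all genes did so. They lay wholly above in 2, Cox6b2 and Ndufa1, where 3.29% of all genes did. Ndufa6, an accessory subunit of complex I, had a positive difference of 0.31 ± 0.15 (0.317).

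In complexes II and III all fold changes between the forms of the drug lay between -0.10 and 0.11. Sdha differed by 0.09 (95% interval -0.13 to 0.32), Sdhc by 0.04 (-0.24 to 0.31) and Sdhd by -0.01 (-0.22 to 0.20). Uqcrc1 differed by 0.11, Uqcrc2 by -0.05 and Uqcr11 by -0.10. In complex IV, Cox5a had signals of 12.81, 12.66, 12.79 and 12.92 in CP-Dox tumours, against 12.92, 12.92, 12.93 and 12.97 in Dox tumours. The groups did not overlap, though CP-Dox replicate 4 matched the lowest Dox values after rounding, with a difference of -0.14 ± 0.08 (limma adjusted p = 0.405). The comparisons against PBS share the PBS tumours, so their fold changes are not independent of each other.

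The spread within groups ran across complexes. PBS replicate 4 had the highest signal of the 12 arrays in 52 of the 76 non-muscle subunits, where it did so in 15.8% of all genes. PBS replicate 2 had the lowest signal of the 12 in 18 of 76, where it did so in 10.7% of all genes. Dox replicate 2 was lowest of the 12 in 20 of 76, against 8.56% of all genes. Within their own groups these 2 were lowest in 63 and 53 of 76, a count not made over all genes. Relative to the PBS mean, the mean over the 76 subunits was -0.18, -0.18, -0.08 and -0.09 in CP-Dox tumours, -0.09, -0.22, -0.01 and -0.12 in Dox tumours and -0.04, -0.20, 0.04 and 0.19 in PBS tumours. The PBS group thus spanned a wider range than the distance between any group means. The mean over complex V was -0.25 to -0.16 in CP-Dox tumours, -0.22 to -0.01 in Dox tumours and -0.19 to 0.17 in PBS tumours, so that PBS replicate 2 lay inside the CP-Dox range.

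**Figure D4:**
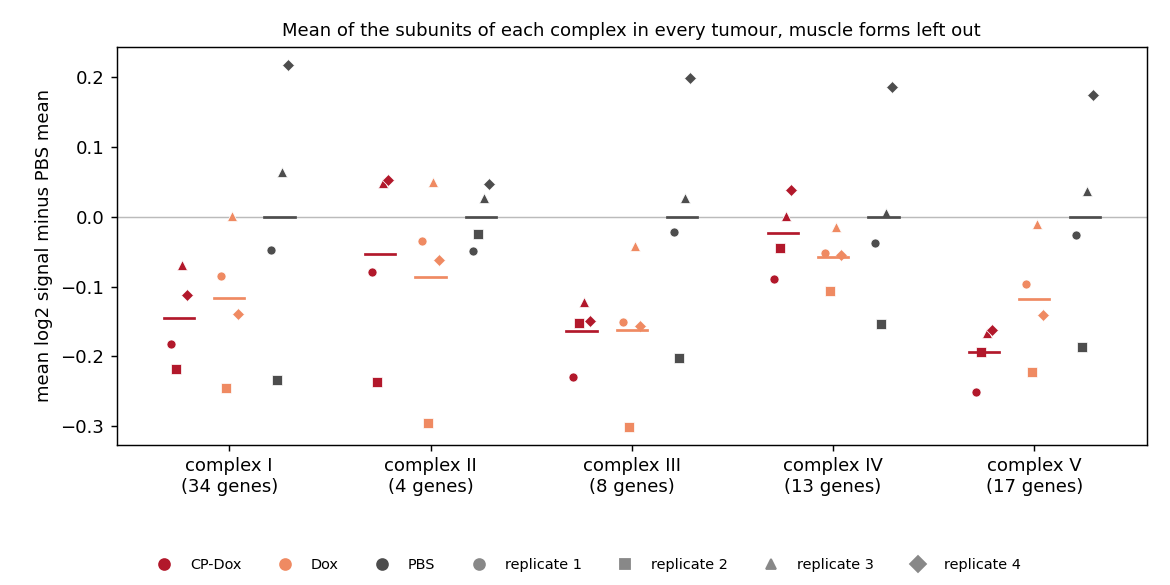
Mean log2 signal of the non-muscle subunits of each complex in every tumour, relative to the mean of the PBS tumours. Each symbol is 1 tumour and bars are group means. PBS replicate 4 is highest for complexes I, III, IV and V, and PBS replicate 2 lies below the other PBS tumours in those complexes, within or below the range of the treated tumours.

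Genes that feed, build or transcribe the chain were listed separately. Of 86 measured, 5 passed between CP-Dox and PBS, a share close to the 5.58% of all genes that passed in either direction. All 5 were lower after CP-Dox, where 3.23% of all genes passed as lower. The list of electron carriers and other feeders had 2 of 10 measured genes past the threshold below PBS, where 3.23% of all genes were, and 0 above. Cyc1 encodes cytochrome c1 and is itself a catalytic subunit of complex III, but its symbol lies outside the family names used to choose the 79. It had signals of 11.49, 11.65, 11.58 and 11.63 in CP-Dox tumours, 12.07, 12.02, 12.03 and 11.94 in Dox tumours and 12.07, 11.94, 12.24 and 12.05 in PBS tumours. Each CP-Dox value was lower than all 8 others. Cyc1 fell by 0.49 ± 0.08 against PBS (log2 fold change -0.49, limma adjusted p = 0.00759), and the call held without any 1 of the 12 arrays (highest adjusted p = 0.0318). Without CP-Dox replicates 1 and 3 it was -0.43 (adjusted p = 0.140), and with the keratinocyte covariate -0.44 (adjusted p = 0.0845). Against Dox, Cyc1 differed by -0.43 ± 0.08 (adjusted p = 0.0578).

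Dhodh, the pyrimidine synthesis enzyme that passes electrons to ubiquinone, had signals of 7.06, 7.16, 7.30 and 7.33 in CP-Dox tumours, 7.77, 7.32, 7.83 and 7.66 in Dox tumours and 7.80, 7.63, 7.63 and 7.82 in PBS tumours. CP-Dox and PBS did not overlap, and Dox replicate 2 lay among the CP-Dox tumours. Dhodh differed by -0.51 ± 0.12 between CP-Dox and PBS (limma adjusted p = 0.0303), a call lost without any 1 of 5 arrays (highest adjusted p = 0.0950). Coq9, which serves ubiquinone synthesis, had the lowest p of this list between Dox and PBS (-0.23, adjusted p = 0.995).

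In the tricarboxylic acid cycle, which supplies NADH and succinate, 1 of 17 measured genes passed, where 5.58% of all genes did. Idh3a, the catalytic subunit of the NAD-dependent isocitrate dehydrogenase, had signals of 10.07, 10.45, 10.22 and 10.38 in CP-Dox tumours, 10.61, 10.69, 10.73 and 10.69 in Dox tumours and 10.75, 10.78, 11.07 and 10.78 in PBS tumours. The 3 groups did not overlap. The difference of CP-Dox from PBS was -0.57 ± 0.10 (limma adjusted p = 0.0109), and it held without any 1 array. It depended on the probe set: with the one of largest variance it was -0.25 (adjusted p = 0.442). Idh2, the NADP-dependent mitochondrial enzyme, differed by -0.23 between Dox and PBS (adjusted p = 0.995).

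Among 15 measured factors of mitochondrial biogenesis and DNA expression, 2 fell after CP-Dox, where 3.23% of all genes did. Tfam, which packages mitochondrial DNA and starts its transcription, had signals of 9.29, 9.11, 9.18 and 9.35 in CP-Dox tumours, 9.41, 9.35, 9.53 and 9.47 in Dox tumours and 9.46, 9.59, 9.58 and 9.72 in PBS tumours. CP-Dox tumours lay below all PBS tumours (-0.35 ± 0.08, limma adjusted p = 0.0343). Polg, the polymerase that copies mitochondrial DNA, had signals of 7.32, 7.90, 7.37 and 7.30 in CP-Dox tumours, 7.61, 7.99, 7.69 and 7.64 in Dox tumours and 7.96, 8.26, 8.00 and 7.90 in PBS tumours. CP-Dox replicate 2 reached the lowest PBS tumour, and the other 3 CP-Dox tumours lay below all PBS tumours (-0.56 ± 0.15, adjusted p = 0.0484). The Tfam call was lost without any 1 of 6 arrays and the Polg call without any 1 of 10 (highest adjusted p of 0.106 and 0.137). Without CP-Dox replicates 1 and 3 the remaining 4 pathway genes did not pass either: Dhodh was at -0.48 (adjusted p = 0.240), Idh3a at -0.43 (0.164), Tfam at -0.36 (0.243) and Polg at -0.43 (0.405). That fit kept 2 CP-Dox tumours, and 2 of all genes passed in it. Ssbp1, the mitochondrial single-strand DNA binding protein, had CP-Dox signals below all Dox signals (-0.41 ± 0.14, adjusted p = 0.200).

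**Figure D5:**
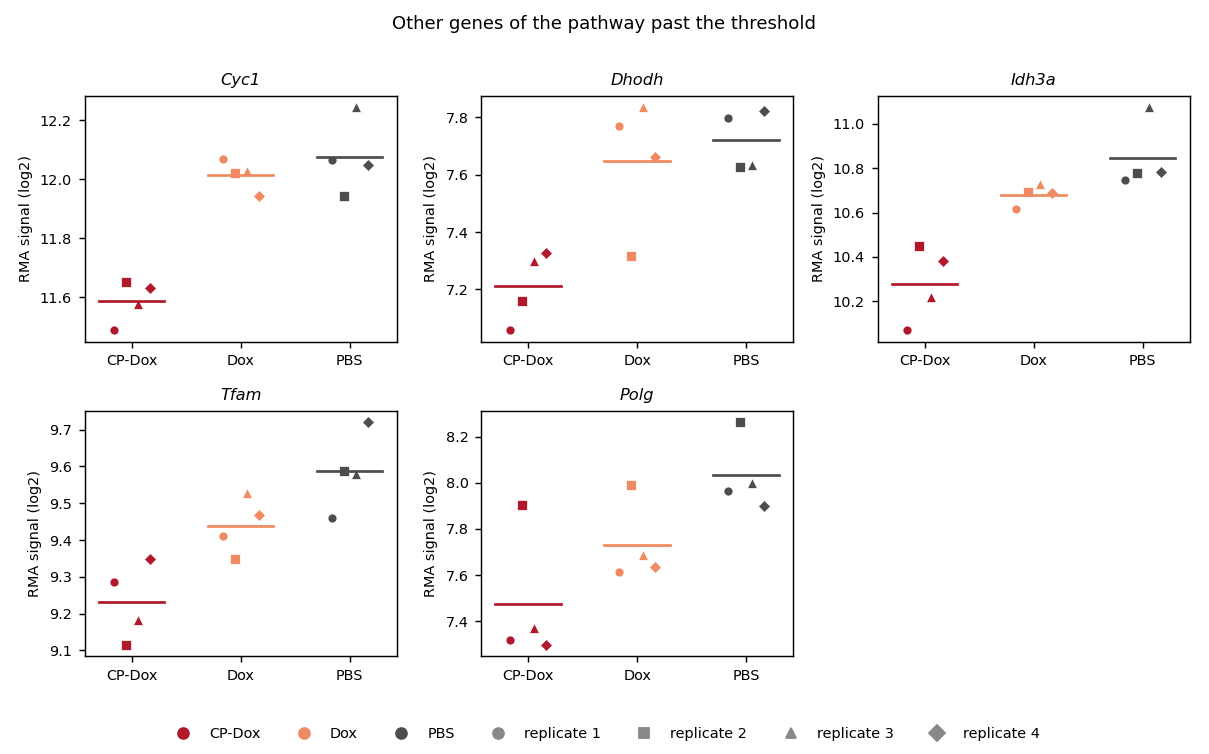
RMA signal (log2) of the 5 other pathway genes past the threshold for CP-Dox against PBS, in every tumour. Symbols are single tumours, bars are group means, and each panel has its own axis, which does not start at 0. CP-Dox tumours lie below all PBS tumours for Cyc1, Dhodh, Idh3a and Tfam, while CP-Dox replicate 2 reaches the PBS range for Polg.

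No assembly factor passed among 33 of 46 listed genes measured, the 5 Ndufaf genes included. In limma, 10 of them had an unadjusted p under 0.05 between CP-Dox and PBS, where 23.5% of all genes did. The lowest p was that of Sco2, a copper chaperone of complex IV (-0.44 ± 0.14, adjusted p = 0.0945). Cox20, a chaperone for a mitochondrially coded complex IV subunit, had the lowest p between Dox and PBS (-0.38, adjusted p = 0.995), and Ecsit, which serves complex I assembly, between CP-Dox and Dox (-0.19, adjusted p = 0.309). None of 10 measured genes of inner and outer membrane exchange passed, and 3 had an unadjusted p under 0.05 after CP-Dox, against the same 23.5% of all genes. Vdac3, a porin of the outer membrane, differed by -0.26 (adjusted p = 0.101), and Slc25a5, an ADP/ATP carrier, by 0.14 between Dox and PBS. No gene of these lists passed between Dox and PBS or between CP-Dox and Dox in limma, where 2 and 12 of the 86 had an unadjusted p under 0.05, against 4.5% and 16.1% of all genes.

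Of 13 subunits coded by mitochondrial DNA, 1 had a probe set, ND5 of complex I. It had signals of 11.95, 12.07, 12.23 and 12.05 in CP-Dox tumours, 12.06, 11.98, 12.24 and 12.22 in Dox tumours and 12.08, 11.80, 12.28 and 12.65 in PBS tumours. The 3 groups overlapped throughout, with PBS replicate 4 highest and PBS replicate 2 lowest, and the difference of CP-Dox from PBS was -0.13 ± 0.15 (95% interval -0.46 to 0.21, limma adjusted p = 0.641).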

How the data were processed

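RNA of 12 C26 tumours was measured on Affymetrix arrays, 1 per mouse. The deposited log2 values were made by the authors with RMA and Partek, per the submitters' processing notes, which give neither versions nor the order of steps. No further normalization was applied. RMA summarizes several probes per gene, so levels of different genes were not compared, apart from marking some signals as low or dim on the scale of all genes.

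The table held 22690 probe sets. Left out were 64 controls, 691 probe sets with several symbols (8 of them naming a subunit) and 1555 with none. The other 20380 stood for 12393 genes, 1 probe set per gene by the highest mean. The 79 subunits had 150 probe sets. Of the 71 not kept, 63 had the same sign as the kept one for CP-Dox minus PBS.

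The 3 comparisons were contrasts of 1 model with a mean per group over all 12 arrays, fitted with limma 3.58.1 (lmFit, eBayes) under R 4.3.3. Two-sided p values were adjusted over all 12393 genes by Benjamini-Hochberg. The fit was tested on simulated data: it recovered 69% of 2-fold and 55% of 1.5-fold changes for CP-Dox against PBS, and called 7 unchanged genes. The simulated noise was independent between genes, without shifts shared by a whole array, and no smaller changes were planted. It therefore does not show how well changes of the size seen in most subunits would be found. Errors are SE unless named, and 12 arrays limit the precision. Lists were described by counts and medians, with no test of a list. Genes named are every member past the threshold, the 3 of lowest p in each complex and comparison, the tissue forms of complex IV with their partners, and of each other list those past the threshold or else the lowest p. Ndufb8, Ndufb2, Ndufs3, Uqcrfs1 and Cox7c were named after their values were seen. The members and lists were chosen with earlier results of these data known. ND5 was matched under its RefSeq symbol. Alternatives were another quantile normalization, centring on array medians, a filter on dim genes, other probe sets per gene, trended and robust variance, array weights, the compared groups alone, a replicate block, marker covariates, a stricter threshold and leaving out arrays. Motifs were counted in Python 3.11.15 and figures drawn with matplotlib 3.10.9.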

Additional observations from a re-analysis of the deposited data

Results flagged for a closer look

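In 165 groups of 4 tumours, 10 held 1 value far from the other 3, where chance gives about 1 in 20 groups. Among the subunits, Cox4i2 was 6.01 in Dox replicate 4 (others 5.73 to 5.77). Ndufa4 was 10.80 in Dox replicate 3 (others 10.25 to 10.33). Ndufb9 was 12.14 in CP-Dox replicate 2 (others 12.22 to 12.24). Dox replicate 2 was low for Sdhb at 11.42 (others 11.73 to 11.78) and for Uqcrc1 at 10.85 (others 11.11 to 11.14).

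Among the other pathway genes, CP-Dox replicate 2 was high for Polg at 7.90 (others 7.30 to 7.37) and for Sco2 at 8.63 (others 8.00 to 8.07). Vdac3 was 12.14 in CP-Dox replicate 4 (others 11.99 to 12.02). Idh3a was 11.07 in PBS replicate 3 (others 10.75 to 10.78), and Slc25a5 was 12.66 in PBS replicate 4 (others 12.94 to 12.99).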

How the results depend on the processing

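The median over the 76 subunits stayed negative for CP-Dox against PBS and for Dox against PBS in every alternative, from -0.19 to -0.07 and from -0.16 to -0.05 when 1 array was left out, and lay between -0.07 and 0.02 for CP-Dox against Dox. Centring the arrays on their medians gave -0.18, -0.10 and -0.06 in that order of comparisons. Subunits that changed between CP-Dox and PBS numbered 10 with array weights, 4 without the dimmest 40% of genes (Cox6b2 was then not tested), 4 with a second quantile normalization, 1 with the skeletal muscle covariate (Cox8b), and 0 with the compared groups alone, with the keratinocyte covariate, at an adjusted p under 0.01, or without both CP-Dox arrays rich in skin markers, an alternative chosen after seeing the data. They numbered 0 to 6 when 1 array was left out (6 without CP-Dox replicate 2, 4 without PBS replicate 2). Between CP-Dox and Dox they numbered 7 with array weights and 0 to 2 when 1 array was left out, and between Dox and PBS 0 throughout.

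Genes changed between CP-Dox and PBS, 691 of all, numbered 2665 with array weights, 198 with the compared groups alone, 42 with the keratinocyte covariate, 143 at 0.01, 2 without both skin-rich arrays and 214 to 2363 when 1 array was left out. Between Dox and PBS, 0 of all became 1 without the skin-rich arrays, 2 with the compared groups alone, 1 with the keratinocyte covariate, 2 with a second quantile normalization and 0 to 2 when 1 array was left out. Between CP-Dox and Dox, 28 of all became 1960 with array weights, 0 without the skin-rich arrays, 0 with the compared groups alone, 47 without the dimmest genes, 1 with the keratinocyte covariate, 9 with the probe set of largest variance, 46 with a second quantile normalization, 54 with the muscle covariate, 1 at 0.01 and 1 to 1150 when 1 array was left out (1150 without CP-Dox replicate 2). The cause of these moves was not tested.

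Replicate numbers are shared by the groups. With each group's mean removed, the correlations of same-numbered tumours ran from -0.31 to 0.51. Tumours of different numbers were not correlated in this way. These values therefore cannot decide whether a shared number marks a pairing. With the replicate block, 4 subunits changed between CP-Dox and PBS (Atp5b, Atp5g1, Cox6b2 and Ndufb8), with 995 genes in all, and 0 subunits in the other comparisons, with 8 genes in all between CP-Dox and Dox.

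Signal over background limits Cox6b2, Cox4i2, Cox7a1 and Cox7c, whose probe sets are dim. In several tumours with low muscle markers Cox8b also lay below the 25th percentile of all signals (5.62). Its fit with the muscle covariate is limited by this too. With 4 tumours per group the median SE over the subunits was 0.11, so single-gene differences as small as the medians given could not be told from 0. Each of the 7 single-gene results past the threshold lost it under at least 1 alternative, and 21 of the other 91 reached it under at least 1. Counting each such result under each alternative as 1 value, 2318 kept their side of the threshold, 76 lost it and 44 reached it, and no called value changed sign. Most of the 2318 belong to results not called, and all 76 losses to the 7 called. The stricter threshold aside, the call held in 22 of 24 alternatives for Cyc1, 19 for Idh3a and 17 for Dhodh. It held in 15 of 24 for Tfam, 9 for Atp5b and 7 for Polg, and in 8 of 23 for Cox6b2.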
